A study of Mus musculus with 4 samples.

Results

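The genes described here are 9 brakes on cell division. They are the kinase inhibitors of the Ink4 family (Cdkn2a, Cdkn2c and Cdkn2d) and of the Cip/Kip family (Cdkn1a and Cdkn1b), the antiproliferative genes Btg1, Btg2 and Tob1, and Trp53. They were chosen by name and function from the 31053 genes of each count matrix, of which 15273 had a transcript in the T cells analysed. Cdkn2a and Cdkn1a were low or undetected in young T cells and higher in the aged libraries, Cdkn1a mainly in the meninges, although 1 aged cell carried much of the Cdkn2a signal of choroid plexus CD4 T cells. Cdkn2c was higher in aged than in young Ccr7-positive cells summed over all T cells, on few UMIs. In Ccr7-positive CD8 T cells its intervals held 0 in both tissues. Btg2 was lower in the choroid plexus than in the meninges at both ages. Btg1 and Btg2 were lower in CD8 than in CD4 T cells in every library. The Ink4 genes were higher and Btg1 and Btg2 lower in cells with a cycling marker, in places on very few UMIs. Cdkn1b was also lower there, but hardly differed in aged meninges. By class of T cell, Cdkn2d and Trp53 differed little by age or tissue. Among Ccr7-positive cells, Trp53 was lower in aged than in young meninges.

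A cell enters S phase after cyclin-dependent kinases have phosphorylated the retinoblastoma proteins. Ink4 proteins bind Cdk4 and Cdk6 and keep them from their D cyclins, while the Cip/Kip proteins p21 (from Cdkn1a) and p27 (from Cdkn1b) bind the assembled cyclin and kinase. The transcription factor p53 (from Trp53) switches on Cdkn1a and Btg2 after DNA damage. Proteins of the BTG and TOB family bind the CCR4-NOT complex, which shortens the poly(A) tails of mRNAs, and Btg1, Btg2 and Tob1 are known for holding resting T cells in quiescence. Cdkn2a is silent in most young tissues and is widely used as a marker of senescent cells.

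T cells (CD4 and CD8) were sorted by flow cytometry from the meninges, the membranes around the brain, and from the choroid plexus, the tissue that secretes cerebrospinal fluid. The mice were female C57BL/6, young (10 weeks old) or aged (18 months old), with no allele or treatment named for any group, and the question was how ageing alters T cells at these borders of the brain. Cells were profiled by droplet RNA sequencing from the 5′ ends of transcripts, each transcript being counted once by its unique molecular identifier (UMI). Each library pooled 5 mice and there was 1 library per age and tissue, so aged and young cells, and the 2 tissues, were compared between single libraries, with no test. Whether the tissues of one age came from the same mice is not given in the sources used here.

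Lists of 4 values give the meninges and then the choroid plexus of young mice, followed by the same tissues of aged mice. After filters on genes, mitochondrial UMIs and doublets, 1007, 605, 1408 and 1094 cells held a CD3 transcript (Cd3e, Cd3d or Cd3g) and were called T cells. Their median depth was 3198, 2978, 2312 and 2838 UMIs. Cells with a Cd4 UMI alone were called CD4 (254, 160, 362 and 230 cells) and cells with a Cd8a or Cd8b1 UMI alone CD8 (254, 160, 281 and 473 cells). A further 481, 269, 735 and 358 cells had neither and are called neither, a class that also holds CD4 and CD8 cells whose marker was missed. Pairs of libraries shared 0 to 3 cell barcodes. Among markers of other cells, macrophage genes summed to between 6.82 and 40.5 CPM (UMIs per 1000000 UMIs of the T cells), with Adgre1 at 0 in all 4 libraries. By class they reached 192.5 CPM in CD4 T cells of aged choroid plexus, the class and library with the highest Cdkn2a, where 0.870% of cells held them, and at most 31.6 CPM elsewhere. B-cell genes summed to between 139 and 237 CPM. Red blood cell genes were higher in the meninges (218 and 343 CPM) than in the choroid plexus (1.48 and 1.64 CPM), and choroid plexus epithelium genes ranged from 1.58 to 57.6 CPM, highest in the young choroid plexus. Markers of naive T cells summed to 2711, 2152, 843 and 556 CPM and those of effector memory T cells to 804, 1334, 2831 and 3666 CPM, so the make-up of the libraries moved with age. Their part in the members' differences was not tested. A further 15 immediate-early and stress genes (Fos, Jun, Dusp1 and others), which are known to be induced within minutes of stimulation or tissue handling, summed to 3597, 593.2, 5071 and 795.2 CPM, and are returned to beside the tissue comparison.

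Levels are UMIs of a gene summed over the cells of a class, per 1000000 UMIs of those cells (CPM), with an exact 95% Poisson interval. Ratios of aged over young are log2 ratios after adding 10 CPM to both, while fold changes and all exact intervals, also those given on the log2 scale, are taken without it. A gene was said to pass the rule of size where the library with more UMIs held at least 20 and the log2 ratio was at least 1 in size. The upper limit that a count of 0 allows was taken as 3 UMIs. These intervals and limits cover counting error only, not the spread between mice.

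Cdkn2a lies on chr4:89274471-89294653 (GRCm38, minus strand, ENSMUSG00000044303) and is known to make p16Ink4a, an Ink4 inhibitor, and p19Arf, which stabilizes p53, from separate first exons. The RefSeq windows from 250 bases before to 50 after both starts are shown because the counts, which are per gene, cannot tell the 2 products apart. Capitals mark GGGCGG, the box bound by Sp1, which 35.7% of 32851 such windows of the RefSeq annotation (GRCm38.p6) held on either strand.
Cdkn2a, chr4:89294570-89294869, minus strand: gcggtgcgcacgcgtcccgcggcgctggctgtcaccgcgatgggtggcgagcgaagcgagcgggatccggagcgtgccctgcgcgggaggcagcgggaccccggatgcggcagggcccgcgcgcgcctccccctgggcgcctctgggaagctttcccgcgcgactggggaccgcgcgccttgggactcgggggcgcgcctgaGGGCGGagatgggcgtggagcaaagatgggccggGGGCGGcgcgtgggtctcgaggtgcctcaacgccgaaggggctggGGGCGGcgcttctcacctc
Cdkn2a, chr4:89282143-89282442, minus strand: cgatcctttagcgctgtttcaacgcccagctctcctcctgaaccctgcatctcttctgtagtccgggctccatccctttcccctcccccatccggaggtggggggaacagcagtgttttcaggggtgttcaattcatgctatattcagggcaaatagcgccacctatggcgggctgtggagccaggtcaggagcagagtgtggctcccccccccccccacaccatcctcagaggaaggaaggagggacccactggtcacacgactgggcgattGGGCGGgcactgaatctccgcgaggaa

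Over all T cells the level of Cdkn2a was 0.569, 2.95, 10.8 and 20.3 CPM, from 2, 6, 41 and 74 UMIs in 2, 4, 33 and 41 cells. Both aged libraries were above both young ones. In CD4 T cells it was 2.26, 4.03, 18.8 and 42.9 CPM, from 2, 2, 19 and 31 UMIs. In CD8 T cells it was not detected in young meninges, which allows up to 2.84 CPM, and was 3.15, 12.2 and 16.7 CPM in the others, from 2, 11 and 29 UMIs. In cells called neither it was not detected in young meninges, which allows up to 1.99 CPM, and was 2.48, 5.77 and 8.02 CPM in the others. The young values rest on 0 to 2 UMIs per class, so the ratios carry wide intervals.

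In the choroid plexus, Cdkn2a was 10.7-fold higher in aged than in young CD4 T cells (95% interval 2.71 to 92.0) and 5.30-fold higher in CD8 T cells (1.34 to 45.9), with log2 ratios of 1.92 and 1.02 that passed the rule of size. The CD4 value rested on 1 aged cell that held 22 of the 31 UMIs (71.0%). Without it 9 UMIs and 12.6 CPM were left, too few for the rule. That cell had 5610 UMIs and 2278 genes, with 6, 9 and 8 UMIs of Cd3d, Cd3e and Cd3g and 2 of Cd4. It also held 11 of the 20 Cdkn1a UMIs of its class, 15 of Tnfsf8 (which encodes CD153), 45 of Ckb, 41 of Sostdc1, 31 of Cst3, 25 of Spp1 and 16 of Igfbp7, and none of Mki67, Top2a or the marker lists for macrophages and choroid plexus epithelium. Sostdc1 is also known from choroid plexus epithelium and Cst3 and Spp1 from macrophages, outside those lists, and whether the cell held RNA of another cell type was not tested. The authors also cite Spp1 in CD4 T cells with CD153 from adipose tissue of mice on a high-fat diet. They state that T cells of their own data did not express Spp1, whereas this cell held 25 UMIs. In the meninges the difference was 8.31-fold in CD4 T cells (2.01 to 73.6). In CD8 T cells and cells called neither, both with 0 young UMIs, the exact interval began at 2.93-fold and 1.95-fold. Their aged levels were 4.28-fold and 2.90-fold the limit that 0 young UMIs allow. None of the 3 classes reached 20 UMIs, so none could pass the rule of size.

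Most aged cells with Cdkn2a held a single UMI (26 of 33 in the meninges, 32 of 41 in the choroid plexus). They were deeper than other T cells, with a median of 2961 against 2306 UMIs in the meninges and 5610 against 2781 in the choroid plexus. After thinning every cell to 1000 UMIs, cells with Cdkn2a made up 0, 0.501, 0.803 and 0.932% of T cells, where 0 allows up to 0.3003%, against 0.199, 0.661, 2.34 and 3.75% without thinning. The order of the libraries was the same with and without thinning to 1000 UMIs but not at other depths. Thinned to 500 UMIs the shares were 0, 0, 0.711 and 0.457%, and to 2000 UMIs 0.108, 0, 1.14 and 1.98%, so the 2 tissues of one age could not be ordered, while both aged shares stayed above both young ones. Among the 33 and 41 aged cells with Cdkn2a, 33 and 38 had no Ccr7 UMI, 15 and 21 had Gzmk (a granzyme of memory CD8 cells), 16 and 25 Cxcr3 (a homing receptor of effector cells), 12 and 10 Tnfsf8 and 7 and 6 Foxp3 (the factor of regulatory T cells). Against this, 90.48 and 90.13% of all T cells of these libraries had no Ccr7 UMI, and 28.76 and 32.45% had Gzmk. The counts for Cxcr3, Tnfsf8 and Foxp3 are given without such a share, so they do not compare these cells with other T cells. The greater depth of cells with Cdkn2a was not removed from any of these counts.

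Cdkn2c (chr4:109660876-109667189, GRCm38, minus strand, ENSMUSG00000028551) encodes p18Ink4c, an inhibitor of Cdk4 and Cdk6 known to limit T-cell proliferation. Over all T cells it was at 12.2, 7.38, 28.5 and 25.2 CPM. In CD4 T cells it was at 19.2, 2.01, 32.6 and 29.1 CPM, from 17, 1, 33 and 21 UMIs, and 8 of the 17 in young meninges came from 1 cell. In CD8 T cells it was at 13.2, 12.6, 17.7 and 24.2 CPM, and in cells called neither at 7.97, 7.44, 30.02 and 21.0 CPM. Each class was higher in the aged library of both tissues. The difference passed the rule of size in meningeal cells called neither (3.77-fold, 1.99 to 7.75) and in choroid plexus CD4 T cells (14.4-fold, 2.32 to 598), the latter against 1 UMI. The meningeal CD4 ratio of 0.55 turned to −0.50 where 2 UMIs were asked for to call a cell CD4 or CD8. Thinned to 1000 UMIs, cells with Cdkn2c made up 0.601, 0.501, 2.63 and 2.80% of all T cells, against 3.08, 2.31, 6.96 and 7.04% without thinning.

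Cdkn2d (chr9:21288410-21291407, GRCm38, minus strand, ENSMUSG00000096472) encodes p19Ink4d, another inhibitor of Cdk4 and Cdk6. It was at 88.0, 88.6, 110 and 87.3 CPM in CD4, 101, 96.1, 82.9 and 96.8 CPM in CD8 and 87.6, 69.4, 102 and 94.2 CPM in cells called neither. The interval of the aged over young ratio held 0 in all 6 comparisons by tissue and class.

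Cdkn1a lies on chr17:29090976-29100727 (GRCm38, plus strand, ENSMUSG00000023067), encodes p21 and is a target of p53. An unverified gene model, AC167363.2, overlaps it on the other strand. The window around the start is shown because, of the 12 windows of the 9 genes, only this one held CATG, 6 bases of any kind and CATG again, the core letters of a p53 motif, in capitals from 48 bases before the start, as did 0.712% of all windows on either strand. A match of letters is a description, not a binding site.
Cdkn1a, chr17:29090729-29091028, plus strand: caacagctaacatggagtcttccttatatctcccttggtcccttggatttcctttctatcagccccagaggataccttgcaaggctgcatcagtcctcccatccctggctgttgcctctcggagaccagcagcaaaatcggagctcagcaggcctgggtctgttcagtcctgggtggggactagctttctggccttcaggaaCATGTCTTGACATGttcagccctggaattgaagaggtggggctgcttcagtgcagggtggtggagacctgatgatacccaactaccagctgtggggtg

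In CD4 T cells Cdkn1a was at 12.4, 14.1, 44.4 and 27.7 CPM, from 11, 7, 45 and 20 UMIs. In CD8 T cells it was not detected in young meninges, which allows up to 2.84 CPM, and was at 3.15, 25.4 and 3.46 CPM in the others. In cells called neither it was at 4.65 CPM in young meninges, not detected in young choroid plexus (up to 3.72 CPM), and at 28.3 and 6.01 CPM in the aged libraries. Aged meninges stood above the other 3 libraries in every class. There Cdkn1a was 3.58-fold higher than in young meninges in CD4 T cells (1.82 to 7.68) and 6.09-fold in cells called neither (2.74 to 15.9). In CD8 T cells, with 0 young UMIs, the exact interval began at 6.71-fold. The aged level there was 8.95-fold the limit that 0 young UMIs allow. All 3 classes passed the rule of size, with log2 ratios of 1.28, 1.82 and 1.39 in CD4, CD8 and neither. Without the cell that held most of it, 17 UMIs were left in CD8 T cells of aged meninges, and the rule was no longer met. In the choroid plexus the log2 ratios were 0.65, 0.03 and 0.68. The interval of the fold change held 1 in CD4 (0.799 to 5.50) and CD8 T cells (0.196 to 11.1). In cells called neither (6 against 0 UMIs) it began at 0.952 and so held 1 too. Thinned to 1000 UMIs, cells with Cdkn1a made up 0.2002, 0.167, 2.34 and 0.280% of T cells, against 1.09, 0.826, 5.18 and 1.46% without thinning. Cdkn1a and Cdkn2a were seen together in 1, 2, 6 and 5 cells.

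Cdkn1b (chr6:134920401-134925513, GRCm38, plus strand, ENSMUSG00000003031) encodes p27, which is high in resting T cells and degraded when they divide. It was at 156, 129, 127 and 101 CPM in CD4, 108, 107, 100.5 and 98.0 CPM in CD8 and 161, 124, 148 and 111 CPM in cells called neither. The interval of the aged over young ratio held 0 in all 6 comparisons.

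**Figure D1:**
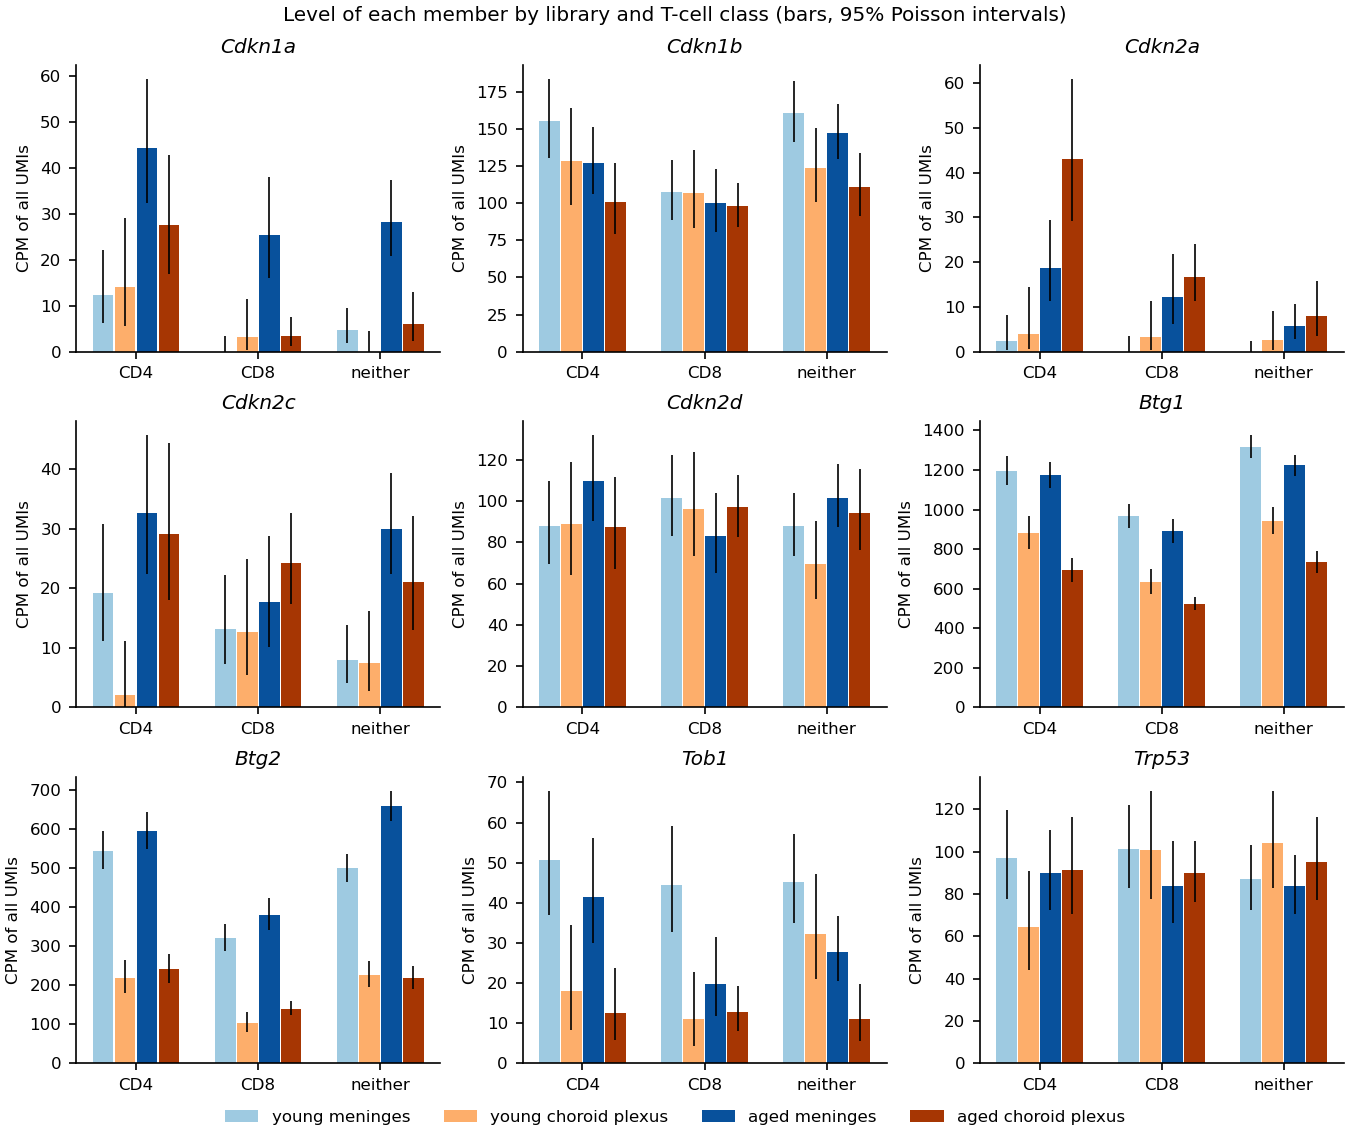
Levels of the 9 genes (vertical axes, CPM) in CD4, CD8 and neither T cells of the 4 libraries, with exact 95% Poisson intervals as bars of counting error. Cdkn2a reached 42.9 CPM in CD4 T cells of aged choroid plexus and Cdkn1a 44.4 CPM in those of aged meninges, while Btg1 reached 1318 CPM and Btg2 658 CPM, both in meningeal cells called neither.

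Btg1 (chr10:96617006-96622809, GRCm38, plus strand, ENSMUSG00000036478) and Btg2 (chr1:134075170-134079120, GRCm38, minus strand, ENSMUSG00000020423) encode related adaptors of CCR4-NOT, and Btg2 is also an immediate-early gene and a p53 target. The start of Btg2 is shown because its window was the only one of the 12 that held TGACGTCA, the cAMP response element bound by CREB, in capitals 166 bases before the start. In all, 1.79% of windows held it.
Btg2, chr1:134079106-134079405, minus strand: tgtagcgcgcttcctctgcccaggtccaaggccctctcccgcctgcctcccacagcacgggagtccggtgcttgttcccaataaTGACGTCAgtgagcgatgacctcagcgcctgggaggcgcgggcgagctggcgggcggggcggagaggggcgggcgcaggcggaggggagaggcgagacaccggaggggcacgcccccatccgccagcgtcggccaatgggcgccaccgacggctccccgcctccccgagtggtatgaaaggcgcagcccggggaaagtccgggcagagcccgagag

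Btg1 was at 1195, 880, 1173 and 693 CPM in CD4, 966, 634, 890 and 525 CPM in CD8 and 1318, 942, 1223 and 734 CPM in cells called neither. The aged choroid plexus was lowest in every class. In the choroid plexus the log2 ratios of aged over young were −0.34 in CD4 (95% interval −0.53 to −0.16), −0.27 in CD8 (−0.44 to −0.10) and −0.36 in cells called neither (−0.51 to −0.21), all under the rule of size. In the meninges they were −0.03, −0.12 and −0.11. The CD4 value there turned to 0.19 where 2 UMIs were asked for to call the class, and to 0.14 after thinning.

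Btg2 was at 544, 219, 594 and 241 CPM in CD4, 320, 102, 380 and 139 CPM in CD8 and 499, 227, 658 and 218 CPM in cells called neither. Meningeal levels were above choroid plexus levels in each class and at both ages. The aged over young log2 ratio was 0.39 in meningeal cells called neither (0.26 to 0.53), 0.24 in meningeal CD8 T cells (0.03 to 0.47) and 0.41 in choroid plexus CD8 T cells (0.04 to 0.86). The other 3 intervals held 0.

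Tob1 (chr11:94211454-94215495, GRCm38, plus strand, ENSMUSG00000037573) encodes a BTG relative that restrains T-cell activation. It was at 50.8, 18.1, 41.5 and 12.5 CPM in CD4, 44.5, 11.0, 19.9 and 12.7 CPM in CD8 and 45.1, 32.2, 27.7 and 11.0 CPM in cells called neither. It was lower in aged cells called neither of the choroid plexus, where 26 and 11 UMIs gave a log2 ratio of −1.01 that passed the rule of size. Its ratio in meningeal CD8 T cells (−0.87, interval −2.03 to −0.35) and cells called neither (−0.55, −1.27 to −0.15) was under the rule.

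Trp53 (chr11:69580359-69591873, GRCm38, plus strand, ENSMUSG00000059552) encodes p53, which is controlled mostly through the stability of the protein. It was at 97.0, 64.4, 89.9 and 91.4 CPM in CD4, 101, 101, 84.0 and 89.9 CPM in CD8 and 87.0, 104, 83.7 and 95.2 CPM in cells called neither. No aged over young interval by tissue and class left out 0.

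Counting the members past the rule of size against all genes tested, 1 of 8 members tested was higher in aged meningeal CD4 T cells, where 6.10% of all genes passed in either direction. In meningeal CD8 T cells it was 1 of 7 (all genes 5.03%) and in cells called neither 2 of 8 (4.86%). In the choroid plexus 2 of 8 were higher in CD4 (9.19%), 1 of 8 in CD8 (3.33%) and none of 7 in cells called neither, where 1 was lower (6.44%). The members' median log2 ratios were 0.050, −0.116 and 0.072 in the meninges, against 0.078, 0.038 and 0.051 over all genes, and 0.288, 0.059 and −0.117 in the choroid plexus, against 0.158, 0.122 and 0.133. The medians of the members thus had both signs. Without the cell that held most UMIs of each member, the count fell from 2 to 0 in choroid plexus CD4 T cells and from 1 to 0 in meningeal CD8 T cells.

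**Figure D2:**
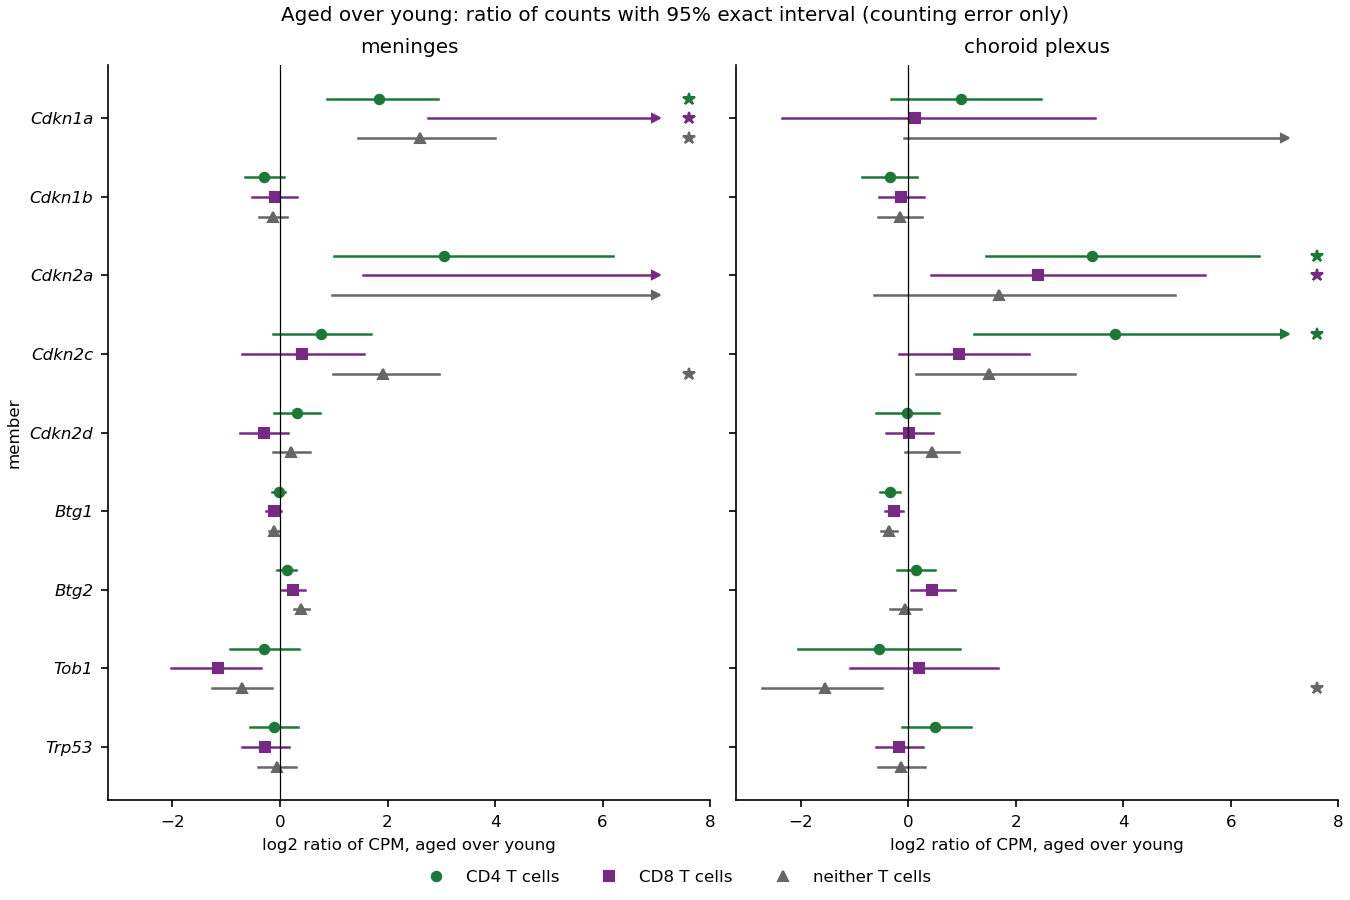
Log2 ratio of aged over young CPM, without the added 10 CPM, for the 9 genes in CD4, CD8 and neither T cells, 1 panel per tissue, with exact 95% intervals. Arrowheads mark a bound beyond the axis and stars the genes past the rule of size, which were Cdkn1a, Cdkn2a, Cdkn2c and Tob1.

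Comparing tissues over all T cells, Btg2 was at 459 CPM in young meninges and 181 CPM in young choroid plexus, and at 570 and 182 CPM in the aged tissues. The log2 ratio of choroid plexus over meninges was −1.29 in young and −1.59 in aged mice, which passed the rule of size, and lay between −1.10 and −1.55 in each of the 6 comparisons within a class. Cdkn1a was also lower in aged choroid plexus than in aged meninges (8.76 against 31.4 CPM, log2 ratio −1.14), while the young libraries held 9 (choroid plexus) and 18 UMIs (meninges) of it. In all, 1 of 7 members tested was lower in the young choroid plexus, where 1.03% of all genes passed the rule, and 2 of 9 in the aged one (0.909%), with none higher.

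Within classes none was higher, and 2 of 6 members tested were lower in young CD4 (3.75% of all genes passed), 2 of 6 in young CD8 (2.72%), 1 of 6 in young cells called neither (2.07%), 2 of 9 in aged CD4 (2.26%), 2 of 9 in aged CD8 (1.38%) and 2 of 8 in aged cells called neither (1.49%). Btg2 was among them each time. Tob1 passed in young CD4 (log2 ratio −1.11), young CD8 (−1.37) and aged CD4 T cells (−1.20), with 9, 7 and 9 UMIs in the choroid plexus, and Cdkn1a in aged CD8 T cells (−1.40) and cells called neither (−1.26).

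Over all T cells, Btg1 (−0.52 and −0.85 in young and aged mice) and Tob1 (−0.84 and −0.82) were lower in the choroid plexus without passing the rule. Cdkn2a was higher in aged choroid plexus than in aged meninges (0.54, and 0.275 without the cell with most Cdkn2a in each library), and Cdkn2d and Trp53 ranged from −0.14 to 0.10. The immediate-early and stress genes, fixed as a list of 15, were lower in the choroid plexus as well, for 11 of 14 tested in young mice (median log2 ratio −1.83) and 13 of 15 in aged mice (−1.93), with mean log2 ratios over both ages of −3.38 for Fos, −3.37 for Junb and −3.32 for Dusp1. Their part in the differences of Btg2, Btg1, Tob1 and Cdkn1a was not tested. Of cells with Cdkn1a, 9 of 11, 2 of 5, 64 of 73 and 8 of 16 also had Btg2. Among all T cells, 695 of 1007, 256 of 605, 855 of 1408 and 448 of 1094 had Btg2. Cells with Cdkn1a had a median of 2879, 5737, 2877 and 5012 UMIs, against 3203, 2972, 2278 and 2828 in other T cells.

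**Figure D3:**
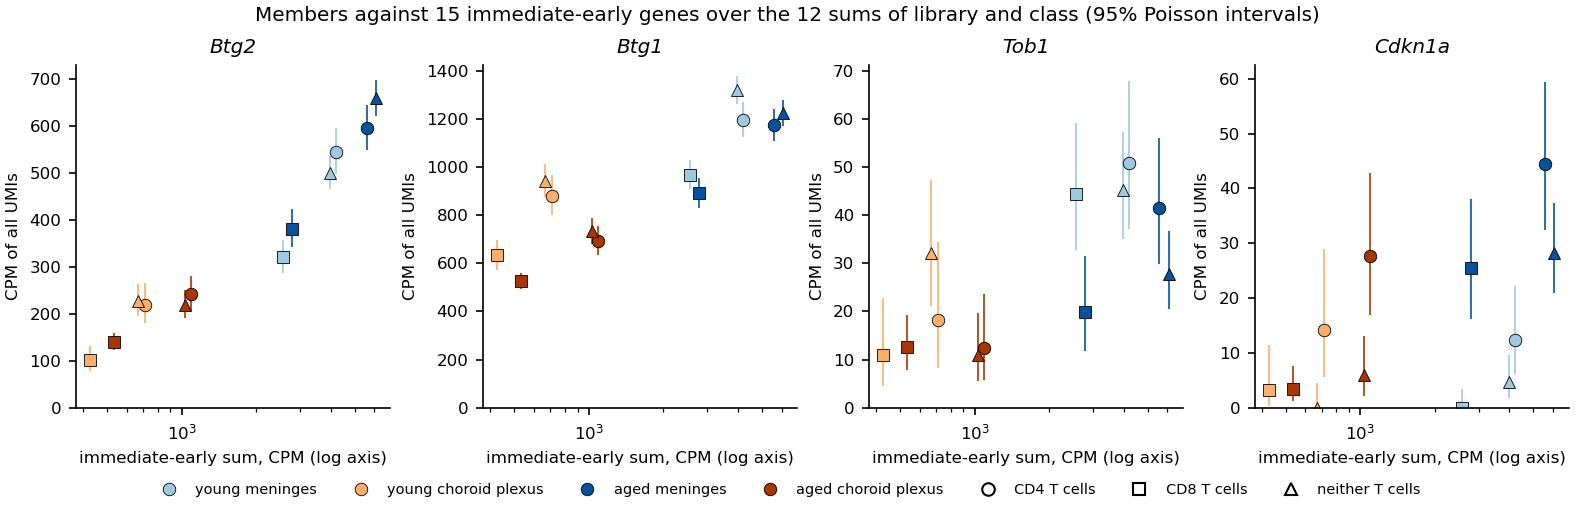
Levels of Btg2, Btg1, Tob1 and Cdkn1a (vertical axes, CPM) against the summed level of 15 immediate-early and stress genes (horizontal log axis, CPM) in the 12 sums of 4 libraries and 3 classes, which share libraries. Btg2 was between 320 and 658 CPM in the 6 meningeal sums, all at 2569 CPM or more of the list, and between 102 and 241 CPM in the 6 choroid plexus sums, all at 1092 CPM or less.

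The classes of T cell occurred in the same library and could be tested, with UMIs summed per class and library, the library as a block and edgeR's quasi-likelihood test over all genes (Benjamini-Hochberg adjusted p). The 4 libraries stood as replicates, so these p-values measure the spread between these libraries only. Of the 9 members, 3 fell and none rose in CD8 against CD4 T cells, where 9.69% of all 7709 genes tested changed in either direction. These were Btg2 (log2 fold change −0.63, SE 0.087, adjusted p = 1.36e-05), Btg1 (−0.25, SE 0.057, adjusted p = 0.00425) and Cdkn1a (−1.63, SE 0.42, adjusted p = 0.0119), each lower in 4 of 4 libraries. For Btg2 the levels in CD4 and CD8 T cells (544 and 320, 219 and 102, 594 and 380, 241 and 139 CPM) were higher in CD4 in each library, and their ranges over libraries overlapped. The Cdkn1a call depended on the aged choroid plexus, without which its log2 fold change was −1.20 (adjusted p = 0.152), and it kept an adjusted p of 0.0426 without the single cell with most Cdkn2a.

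Against CD8 T cells, cells called neither had higher Btg1 (log2 fold change 0.38, SE 0.056, adjusted p = 3.82e-05) and Btg2 (0.66, SE 0.084, adjusted p = 5.89e-06) in 4 of 4 libraries, 2 of 9 members where 9.35% of all genes changed. Against CD4 T cells only Cdkn2a fell, by 1.97 on the log2 scale (SE 0.38, adjusted p = 0.0433), 1 of 9 where 0.0649% of all genes changed. Without the aged choroid plexus cell with 22 UMIs this value was −1.27 (adjusted p = 0.714), and without the young choroid plexus library the adjusted p was 0.0518. It could not be fitted without either aged library. Cdkn2a in CD8 against CD4 T cells (−0.96, adjusted p = 0.0818) and Cdkn1b in neither against CD8 (0.29, adjusted p = 0.0713) did not pass.

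Immediate-early and stress genes moved between the same classes, with 11 of 14 tested lower in CD8 than in CD4 T cells (median −0.81) and 11 of 14 higher in neither than in CD8 (median 0.85). Their part in the Btg1, Btg2 and Cdkn1a differences was not tested. Among partners of the members, Cdk4, the kinase that Ink4 proteins bind, was higher in CD8 than in CD4 T cells (0.43, adjusted p = 0.0115), and Plk3, a stress kinase and p53 target, was lower (−1.71, adjusted p = 0.000148).

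Ccr7, a homing receptor of naive and central memory cells, was detected in 59.7, 54.7, 9.52 and 9.87% of T cells. Comparing Ccr7-positive with Ccr7-negative cells of the same library in the same way (8 sums), 3 of 8 members tested rose and none fell, where 10.0% of all genes changed. Tob1 was at 52.7, 23.8, 65.9 and 13.0 CPM in Ccr7-positive and 37.4, 19.0, 24.0 and 11.9 CPM in Ccr7-negative cells, higher in 4 of 4 libraries (log2 fold change 0.90, SE 0.22, adjusted p = 0.0123). Cdkn1b was at 165, 135, 121 and 108 against 114, 98.3, 131 and 101 CPM, higher in 3 of 4 (0.46, SE 0.12, adjusted p = 0.0208). Btg1 was at 1323, 921, 1109 and 608 against 958, 685, 1122 and 618 CPM, higher in the 2 young libraries only (0.40, SE 0.095, adjusted p = 0.0111). The fit rescales each sum (TMM), so its fold changes can differ from ratios of these CPM.

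Leaving out 1 library ended these calls in several cases. Without young meninges the adjusted p was 0.275 for Cdkn1b, 0.198 for Btg1 and 0.0835 for Tob1. Without young choroid plexus it was 0.114 for Cdkn1b and 0.084 for Btg1, and without aged meninges 0.128 for Tob1. With DESeq2 the adjusted p was 0.157 for Cdkn1b and 0.176 for Tob1. Foxo1, a transcription factor known to activate Cdkn1b, also rose in Ccr7-positive cells (0.75), 1 of 4 regulators of p27 tested. Of 14 p53 targets, Sesn1 (0.77) and Bbc3 (0.71) rose and Plk3 (−1.07) fell, and of 10 cyclins, kinases and pocket proteins of G1, Cdk4 (−0.42) and cyclin D2 (Ccnd2, −0.48) fell and none rose.

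**Figure D4:**
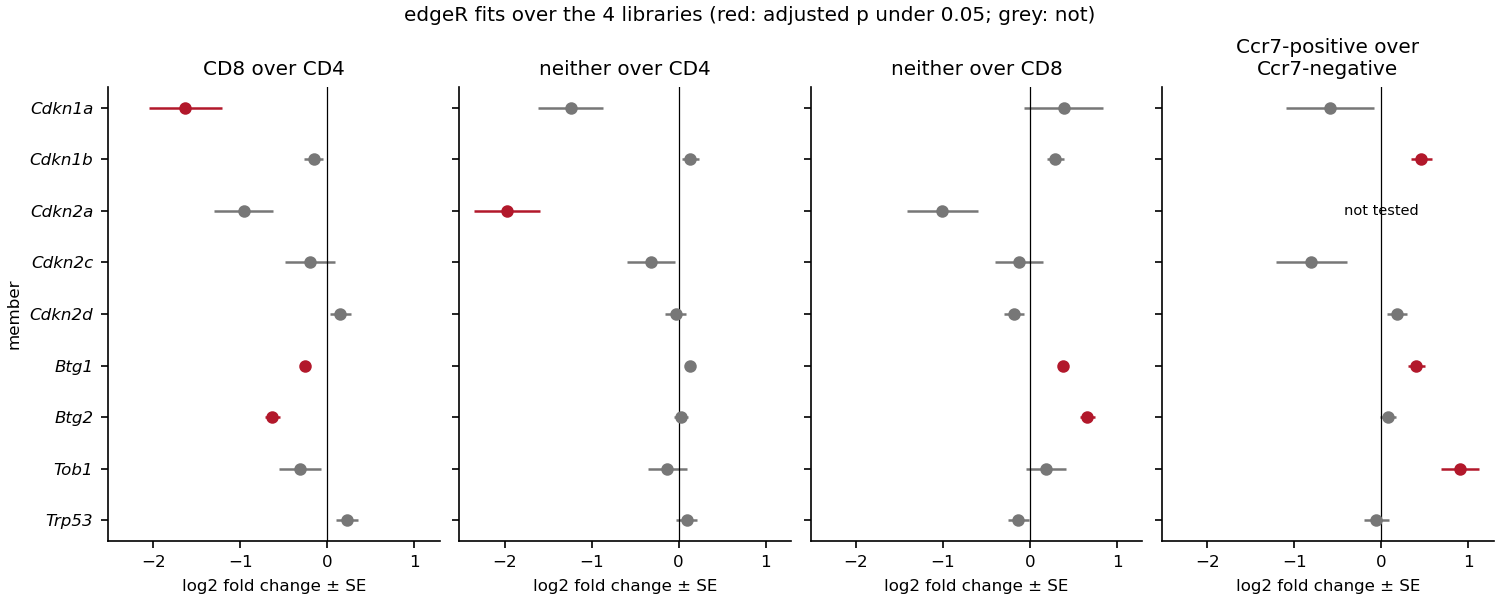
Log2 fold changes with SE of the 9 genes in 3 comparisons of T-cell classes and in Ccr7-positive against Ccr7-negative cells, with adjusted p under 0.05 in red. Btg1 and Btg2 fell in CD8 against CD4 T cells and were higher in neither than in CD8. Btg1, Tob1 and Cdkn1b rose with Ccr7 in the fit, although Btg1 in CPM was higher in 2 libraries and lower in 2. Cdkn2a was not tested by Ccr7.

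Cdkn2c, Cdkn2d, Cdkn1a and Trp53, which did not pass in that comparison, were described by state and age. So were Cdkn2a, which was not tested there, and Cdkn1b. Cdkn2c was at 3.76, 2.64, 30.7 and 26.0 CPM in Ccr7-positive cells, from 8, 3, 14 and 12 UMIs, and at 25.1, 13.4, 28.2 and 25.1 CPM in Ccr7-negative cells. Within Ccr7-positive cells it was thus 8.17-fold higher in aged than in young meninges (log2 interval 1.68 to 4.49) and 9.84-fold higher in the choroid plexus (1.41 to 5.76). By class, the interval lay above 0 in meningeal CD4 T cells and, in both tissues, in cells called neither. It held 0 in meningeal CD8 T cells (1 aged against 5 young UMIs). In the choroid plexus it held 0 in CD4 (2 against 1) and CD8 T cells (4 against 1). Within Ccr7-negative cells the log2 ratio was 0.12 in the meninges (−0.41 to 0.77) and 0.58 in the choroid plexus (0.02 to 1.91), and the difference between the states was not tested. Cdkn1a in Ccr7-positive cells was at 0.470, 2.64, 32.9 and 10.8 CPM, from 1, 3, 15 and 5 UMIs, and in Ccr7-negative cells at 12.2, 6.71, 31.2 and 8.46 CPM. Cdkn2a was not detected in Ccr7-positive cells of young meninges, which allows up to 1.41 CPM, or of aged meninges (up to 6.59 CPM), against 12.3 CPM in Ccr7-negative cells of aged meninges. In aged choroid plexus 8 UMIs in 3 Ccr7-positive cells gave 17.3 CPM, against 20.7 CPM in Ccr7-negative cells. Aged over young log2 ratios of Cdkn2d in Ccr7-positive cells were 0.19 in the meninges (−0.29 to 0.68) and 0.42 in the choroid plexus (−0.06 to 0.97). Among those called neither they were 0.70 (0.09 to 1.41) and 1.35 (0.48 to 2.57), while CD4 and CD8 intervals held 0. In the same order, Trp53 in Ccr7-positive cells was at −0.72 (−1.48 to −0.22) and 0.21 (−0.34 to 0.78). Cdkn1b was at −0.42 (−0.88 to −0.03) and −0.29 (−0.81 to 0.15).

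Regulatory T cells depend on Foxp3, which was detected in 33, 12, 141 and 72 cells. In these Cdkn1b was at 171, 98.8, 174 and 138 CPM and Cdkn2c at 7.78, 0, 53.1 and 26.4 CPM, with 1, 0, 25 and 9 UMIs, where 0 in the young choroid plexus allows up to 59.3 CPM. Cells with Gzmk (53, 35, 405 and 355) had Cdkn1b at 64.0, 80.5, 103 and 99.7 CPM.

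Cells with a UMI of Mki67 or Top2a, genes of dividing cells, numbered 40, 30, 73 and 83 and are called cycling here. They were deeper (median 3802, 4279, 3739 and 4843 UMIs) than the other T cells (3190, 2965, 2258 and 2756), so levels are given as CPM. Cdkn2a was at 4.22, 28.1, 30.8 and 54.5 CPM in cycling and 0.305, 0.539, 8.73 and 14.9 CPM in other T cells, from 1, 5, 11 and 27 against 1, 1, 30 and 47 UMIs. Cdkn2c was at 67.5, 16.9, 64.4 and 58.6 against 8.23, 6.47, 24.7 and 19.9 CPM, and Cdkn2d at 122, 101, 143 and 150 against 90.2, 80.9, 92.8 and 83.6 CPM. All 3 Ink4 genes were higher in cycling cells in 4 of 4 libraries, as was Cdkn1a. The other way, Cdkn1b was at 80.2, 107, 129 and 68.7 against 149, 120, 130 and 107 CPM. Btg1 was at 637, 332, 871 and 370 against 1218, 864, 1147 and 655 CPM, and Btg2 at 266, 50.7, 378 and 111 against 473, 194, 590 and 194 CPM. These 3 and Tob1 were lower in cycling cells in 4 of 4 libraries, and Trp53 in 2 of 4. Some of these directions are weak. Cdkn1b hardly differed in aged meninges (129 against 130 CPM), and Cdkn2a in young meninges rested on 1 against 1 UMI. Cycling cells with Cdkn1a numbered 1, 2, 8 and 8, and those with Tob1 7, 2, 8 and 5. This comparison was described without a test.

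**Figure D5:**
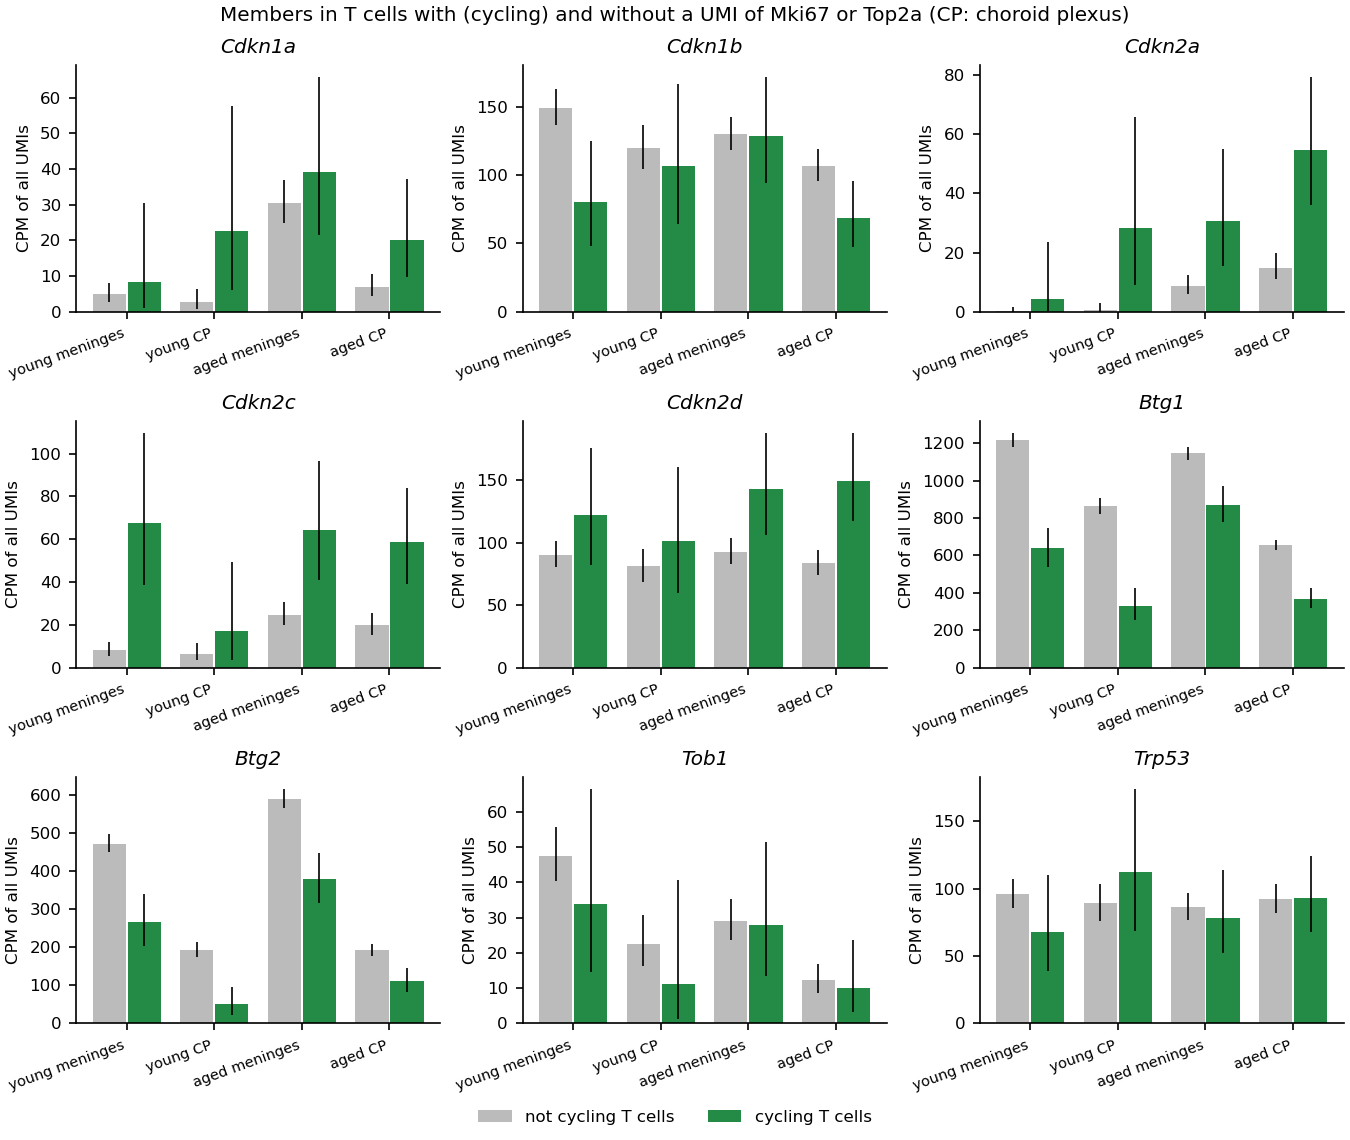
Levels (vertical axes, CPM) of the 9 genes in cycling T cells (a UMI of Mki67 or Top2a) and other T cells of the 4 libraries. Levels are drawn as bars with Poisson intervals of counting error. Cdkn2a, Cdkn2c, Cdkn2d and Cdkn1a were higher and Cdkn1b, Btg1, Btg2 and Tob1 lower in cycling cells in 4 of 4 libraries. Cdkn1b hardly differed in aged meninges.

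Other genes of the same pathways were counted by fixed lists. The inhibitors Cdkn1c, Cdkn2b and Cdkn3 did not have enough UMIs to be measured in any of the 6 age comparisons, and of 8 to 11 measured subunits of CCR4-NOT none passed the rule of size. None passed among other BTG and TOB genes or regulators of p53. Of the p53 targets other than the members, 11 to 16 were measured per comparison. Sesn1, a stress sensor that restrains mTORC1, was lower in aged cells in all 6 comparisons, from 124 to 40.5 CPM in CD4, 96.5 to 26.5 in CD8 and 151 to 39.3 in cells called neither of the meninges, and from 215 to 29.1, 148 to 43.2 and 182 to 48.1 CPM in the choroid plexus. No other gene of that list was lower. Pmaip1 (5.98 to 31.2 CPM) and Plk3 (16.6 to 51.9 CPM) were higher in aged meningeal cells called neither, and Plk3 (4.03 to 31.9 CPM) and Rrm2b (12.1 to 40.2 CPM) in aged choroid plexus CD4 T cells, and no gene of the list was higher in the other 4 comparisons.

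Cdk6, a kinase bound by the Ink4 proteins, was higher in aged CD4 T cells of the meninges (10.2 to 37.5 CPM) and choroid plexus (18.1 to 55.4 CPM) and in cells called neither of both (8.63 to 39.8 and 11.2 to 45.1 CPM). In CD8 T cells its log2 ratio was 0.91 in each tissue, under the rule. Foxo1 was lower in aged meningeal CD4 T cells (132 to 39.5 CPM) and in cells called neither of the meninges (136 to 61.2 CPM) and the choroid plexus (129 to 48.1 CPM), while Cks1b, which helps p27 to be degraded, was higher in choroid plexus CD4 T cells (18.1 to 48.5 CPM). Genes of dividing cells were higher for 3 of 17 measured in aged meningeal CD4 T cells, 3 of 12 in meningeal cells called neither and 2 of 19 in choroid plexus CD8 T cells, and none passed in the other 3 comparisons. Immediate-early and stress genes were higher for 2 of 14, 2 of 12 and 5 of 15 in the meninges (CD4, CD8 and neither) and 2 of 9, 1 of 9 and 2 of 11 in the choroid plexus, and none was lower. Their part in the age differences of the members was not tested.

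Across the 12 sums of class and library, which share libraries, the genes with the most similar profile by Pearson's r of log2 CPM were Klf6 (0.98), Cited2 (0.96) and Pnrc1 (0.96) for Btg2 and Cisd2, Tra2b and Pnrc1 (0.94 each) for Btg1. For Cdkn1b they were Znrf1 (0.93), Sept1 (0.88) and Gimap6 (0.88), for Cdkn2d Mtpn (0.84) and for Trp53 Ngly1 (0.81). Among the members, r was 0.90 for Btg1 with Btg2, 0.86 for Btg1 with Tob1 and 0.84 for Btg1 with Cdkn1b, and 0.65 for Cdkn2a with Cdkn2c. These values describe 2381 genes with a mean of at least 50 CPM and the 9 members.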

How the data were processed

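Raw UMI counts per gene and cell were deposited by the authors as 4 matrices of called cells, without normalization. The matrix headers name Cell Ranger 3.1.0, and the submitters' processing notes name Cell Ranger 5.1.0, STAR and mm10. The libraries held 1111, 718, 1695 and 1277 cells with 3737140, 2295950, 4262917 and 3957717 UMIs (meninges and choroid plexus of young, then of aged mice).

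Cells with 200 to 7000 genes and at most 5% mitochondrial UMIs were kept (1035, 631, 1436 and 1106). Scrublet (scanpy 1.11.5) marked 16, 22, 0 and 5 of them as doublets, which were removed. It marked none in aged meninges, so doublets can remain there. T cells, classes and states were called by 1 or more UMIs of the genes named. Cells with both Cd4 and Cd8 UMIs (18, 16, 30 and 33) were counted among all T cells only. Ratio intervals were exact conditional binomial, intervals of shares Clopper-Pearson. Classes were compared with edgeR 4.0.16 (quasi-likelihood, TMM, low-count filter, library as block, 12 sums, the genes used for gating left out), with Benjamini-Hochberg adjustment over all genes and a threshold of 0.05. On simulated counts of the CD8 and CD4 sums this recovered 179 of 200 genes changed by 1 on the log2 scale and called 9 of 7192 unchanged genes. For the Ccr7 comparison it recovered 192 of 200 and called 7 of 7737. In both, the changed genes were taken from those with higher mean counts and drawn with the spread that the fit itself estimated. Cdkn2a and Cdkn1a fell below that count in the class sums, so these rates do not cover their calls or smaller changes.

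All 9 members were named whatever their values. Of the other lists, genes past the rule of size or the threshold with the largest mean ratio were named, at most 5 per list and comparison. The members and the gene lists were chosen with earlier results of these data known. Alternatives covered the added CPM, UMI minimum, scaling, thinning, doublets, filters, gates, tool and each library left out, and 2 were chosen after seeing the data. Identifiers and gene coordinates are from GENCODE vM21 (GRCm38). Python 3.11.15, R 4.3.3 and DESeq2 1.42.0 were used.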

Additional observations from a re-analysis of the deposited data

Results flagged for a closer look

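Btg1 went in opposite directions with age in the Ccr7-negative cells of the 2 tissues, with a log2 ratio of aged over young of 0.23 in the meninges (95% counting interval 0.14 to 0.32) and −0.15 in the choroid plexus (−0.28 to −0.02). Within the meninges, it also differed in direction between Ccr7-positive cells (−0.25, interval −0.40 to −0.12) and Ccr7-negative cells (0.23). With 1 library per age and tissue, neither difference was tested.

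Some members were counted in the 12, 4, 28 and 7 cells without a Cd3 UMI (meninges and choroid plexus of young, then of aged mice), which no comparison used, at more than 3 UMIs. These were 18, 4, 17 and 7 UMIs of Btg1, 10, 19 and 4 UMIs of Btg2 in young meninges, aged meninges and aged choroid plexus, and 4 UMIs of Cdkn1b in aged meninges.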

How the results depend on the processing

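Calls of the age comparisons rest on few UMIs. In the order meninges CD4, CD8 and neither, then choroid plexus CD4, CD8 and neither, no member passed with 50 CPM added (genes 85, 60, 77, 113, 37 and 70; members 1 between aged tissues). With 1 CPM added, 2 members passed in meninges CD8, in choroid plexus neither and between young tissues (genes 651, 575, 784 in the meninges, 653 and 609 in choroid plexus CD8 and neither). With at least 50 UMIs, 0 passed except 1 in meninges neither (genes 198 and 157 in meninges CD4 and CD8, 180, 133 and 186 in the choroid plexus), and with at least 10 UMIs 2 in meninges CD4 and CD8. Thinned, 0 passed except 1 in meninges neither (choroid plexus CD4 genes 230). With 2 UMIs to call a class, 0 passed in meninges CD4 and CD8 (CD4 genes 192 and, in the choroid plexus, 218). Meninges CD8 held 2 by per-cell means or without ribosomal genes, choroid plexus CD8 0 by TMM or per-cell means, choroid plexus neither 0 at 10% mitochondrial UMIs, and meninges CD8 and choroid plexus CD4 0 without the cell with most UMIs of each member, chosen after seeing the data. Between tissues within classes, 1 member passed in place of 2 in young CD4 and CD8 and aged CD8 (thinned, 50 CPM, 50 UMIs), in aged CD4 and neither (50 CPM, 50 UMIs), in young CD4 by per-cell means, in young CD4 and aged CD8 with 2 UMIs to call a class and in aged CD8 without the top cells, and 0 in place of 1 in young neither with 50 CPM. Without ribosomal, mitochondrial and receptor genes the median of all genes moved from 0.158 to 0.046 in choroid plexus CD4, from 0.122 to 0.046 in CD8 and from 0.133 to 0.028 in neither, and changed sign in the meninges (CD4 0.078 to −0.017, CD8 0.038 to −0.078, neither 0.051 to −0.039), and the share of higher calls in meninges CD8 from 63.7 to 48.4%.

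Genes changed (CD8 against CD4, neither against CD4, neither against CD8, Ccr7) were 407, 0, 345 and 413 by DESeq2 (80 genes of neither against CD4 at unadjusted p under 0.05, 448 by edgeR), 346, 2, 332 and 400 thinned and 69, 0, 49 and 157 without the library as block, where no member passed in any of the 4. Without the low-count filter, 77 changed in neither against CD4, Cdkn1a among them (adjusted p = 0.00395), and Cdkn2c passed by Ccr7 (adjusted p = 0.047). By Ccr7, 309 changed in CD4 only, 338 in CD8 only and 271 with Ccr7 or Lef1. Leaving out 1 library gave 471 to 693, 3 to 17, 463 to 618 and 337 to 967. Members that turned direction had not passed. Thinned, these were Cdkn2d (−0.032, CD8 against CD4), Tob1 (−0.095, neither against CD8) and, by Ccr7, Cdkn2d (−0.061), Btg2 (−0.019) and Trp53 (0.061). By Ccr7, Cdkn2d was −0.063 in CD4 only and Trp53 0.074 in CD8 only and 0.002 with Ccr7 or Lef1. With 1 library left out, ranges that crossed 0 were, in neither against CD4, Btg2 −0.050 to 0.083, Tob1 −0.300 to 0.091, Cdkn2d −0.091 to 0.024 and Trp53 −0.036 to 0.171, in neither against CD8, Tob1 −0.027 to 0.409 and Cdkn2c −0.547 to 0.037, and by Ccr7, Trp53 −0.266 to 0.066 and Cdkn1a −1.523 to 0.131. Cdkn2a in neither against CD4 had an adjusted p of 0.0528 with no doublet removal, 1 by DESeq2 and 0.0518 without young choroid plexus, and Btg1 in CD8 against CD4 of 0.0616 thinned. The causes were not tested. For age and tissue, no paired analysis was possible because each had 1 library, while the class and Ccr7 comparisons were paired within library.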
